A study of Mus musculus with 7 samples.

Results

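The cell-cycle and proliferation genes described here are 35 mouse genes that dividing cells use to copy and to segregate their DNA. Their rows were found by gene symbol in the GENCODE M21 annotation, by a rule that uses no measured value, although the list was drawn up with earlier results of these data known. Of the 35, 13 act in DNA replication and are called S phase genes, and 22 act from late interphase to the end of division and are called mitotic genes. All 35 had a row among the 55401 genes of the count table, and all 35 passed the filter on low counts that left 19199 genes for testing.

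RNA was sequenced from microglia of the dorsal hippocampus of C57BL/6 mice aged 6-8 Weeks, which the series describes as male. Both groups had AAV-RAM-Cre injected into their dorsal dentate gyrus. The EYFP group (4 libraries, genotype control) received AAV-Dio-EYFP with it and the ATG7 group (3 libraries, genotype ATG7 overexpression) received AAV-Dio-Atg7-Flag, so every mouse carried Cre and a Cre-dependent virus. RAM is an activity-dependent promoter that is used to express genes in recently active neurons, and the comparison therefore asks how microglia differ when neurons, not microglia, are made to overexpress ATG7. Cells were enriched with beads against CD11b, a surface protein of myeloid cells. The labels do not say whether each library is 1 mouse or a pool, so p-values measure the spread between libraries. The libraries are named EYFP 1 to 4 and ATG7 1 to 3 after their replicate numbers.

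Total counts lay between 35934210 (EYFP 1) and 55217119 (ATG7 2). They averaged 41887068 over the EYFP and 47593216 over the ATG7 libraries (exact permutation p = 0.286, two-sided). This test can give no p under 0.0286 here, so it does not show that depth was equal. The targeted gene, Atg7, averaged 35.6 ± 1.68 CPM (SD, n = 4) over the EYFP libraries and 34.9 ± 2.76 CPM (SD, n = 3) over the ATG7 libraries, where CPM is the count scaled to the library size (adjusted p = 0.939, edgeR), which checks no label because the target was neurons. The 10 microglial markers (P2ry12, Tmem119 and others) summed to between 21806 and 26909 CPM and were all detected. The 6 choroid plexus markers summed to more, between 46099 and 71787 CPM. EYFP 3 stood apart in Xist, a transcript of female cells, with 938.5 CPM against 0.151 to 0.574 CPM in the other libraries, and results are also given without it.

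The cell cycle runs as 2 waves of transcription. Genes of replication are switched on before S phase by E2F transcription factors once cyclin-dependent kinases have inactivated the RB proteins. Genes of mitosis follow, through B-MYB, FOXM1 and the MuvB complex, which binds the cell cycle genes homology region (CHR) of their promoters, often beside CCAAT boxes bound by NF-Y. In quiescent cells the same MuvB proteins join the DREAM repressor. Microglia are long-lived and renew themselves by slow local division, and the dentate gyrus beside them also holds dividing neural precursors and oligodendrocyte precursors.

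Promoters of many members hold the letters of these elements. The 6 shown, 4 of mitotic genes and 2 of S phase genes, were picked as examples with matches. Each is 160 bases that end before the annotated start of the gene, 5′ to 3′ on the gene's strand, from RefSeq on GRCm38.p6. Capitals mark the CHR (spelled TTTGAA, in its other form TTCGAA), the CCAAT box, and E2F sites in any of 4 spellings, namely TTCCCGC, the second form TTGGCGC, another form TTCGCGC, and lastly TTGCCGC. Reverse complements count as matches, and E2F matches may overlap each other or a CCAAT box.
Top2a, chr11:99024190-99024349, minus strand: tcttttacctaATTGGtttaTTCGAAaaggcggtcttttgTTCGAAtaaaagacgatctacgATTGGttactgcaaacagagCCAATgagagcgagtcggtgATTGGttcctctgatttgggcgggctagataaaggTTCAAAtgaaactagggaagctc
Mki67, chr7:135716380-135716539, minus strand: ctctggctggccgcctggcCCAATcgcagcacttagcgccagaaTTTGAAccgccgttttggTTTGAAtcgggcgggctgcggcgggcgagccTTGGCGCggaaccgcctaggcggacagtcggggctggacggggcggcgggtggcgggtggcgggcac
Cdk1, chr10:69352939-69353098, minus strand: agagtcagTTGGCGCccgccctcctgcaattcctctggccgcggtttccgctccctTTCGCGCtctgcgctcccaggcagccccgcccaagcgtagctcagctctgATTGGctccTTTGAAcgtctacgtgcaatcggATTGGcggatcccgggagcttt
Kif11, chr19:37376222-37376381, plus strand: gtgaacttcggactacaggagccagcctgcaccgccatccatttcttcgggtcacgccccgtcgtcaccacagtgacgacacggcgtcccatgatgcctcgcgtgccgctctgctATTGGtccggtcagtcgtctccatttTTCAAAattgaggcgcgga
Mcm5, chr8:75109349-75109508, plus strand: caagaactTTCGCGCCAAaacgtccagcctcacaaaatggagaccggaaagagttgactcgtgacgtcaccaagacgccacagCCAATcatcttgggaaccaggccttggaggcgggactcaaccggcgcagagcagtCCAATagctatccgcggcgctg
Mcm6, chr1:128359706-128359865, minus strand: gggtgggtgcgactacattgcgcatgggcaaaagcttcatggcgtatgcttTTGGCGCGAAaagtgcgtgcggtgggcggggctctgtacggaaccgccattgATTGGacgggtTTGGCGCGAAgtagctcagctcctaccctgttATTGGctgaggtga
The stretch of Top2a holds 3 CHR matches and 4 CCAAT boxes, and that of Mki67 holds 2 CHR matches with 1 CCAAT box and 1 E2F match. Kif11 has 1 CHR match and 1 CCAAT box. Cdk1 has 1 CHR match, 2 CCAAT boxes and 2 E2F matches. In Mcm5 and Mcm6 there is no CHR match, and E2F matches number 2 and 4.

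Promoter windows from 250 bases before to 50 bases after the RefSeq start were found for 29 members, 11 of S phase and 18 mitotic. Mcm4, Gins2, Aurkb, Ccna2, Kif20a and Tpx2 were not matched. The windows of Nusap1, Birc5, Tyms and Tk1 held none of the 3 motifs. A CHR match on either strand lay in 14 of the 18 mitotic genes (77.8%), in 2 of the 11 S phase genes (18.2%) and in 21.7% of all 27025 genes with a window. E2F matches had the other order, with 63.6% of S phase genes, 22.2% of mitotic genes and 10.9% of all genes. CCAAT boxes lay in 88.9% of mitotic and 81.8% of S phase genes against 41.1% of all genes. These are matches of letters in a window and were not tested as binding sites.

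**Figure D1:**
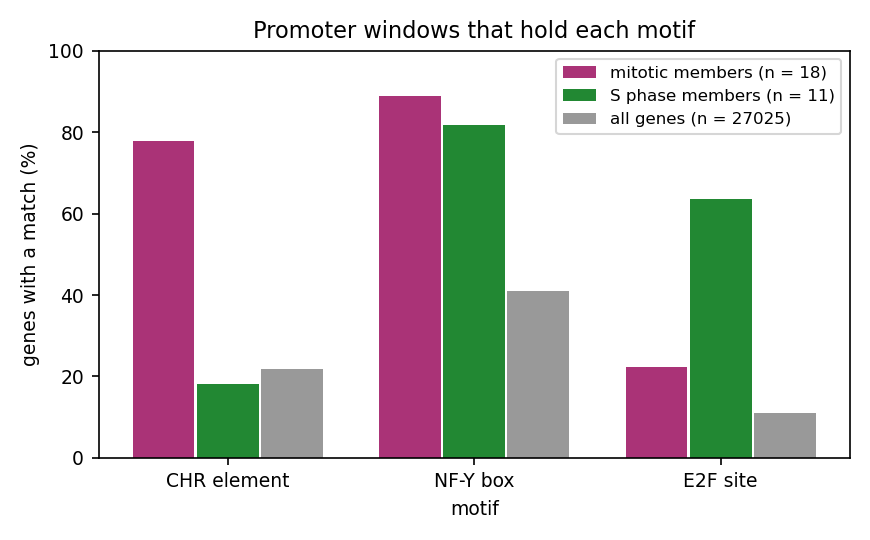
Percent of genes (y axis) whose promoter window holds each motif (x axis: the CHR, the CCAAT box bound by NF-Y, and E2F sites), for 18 mitotic members, 11 S phase members and all 27025 genes with a window. The CHR bar is tallest for mitotic members (77.8%) and the E2F bar for S phase members (63.6%).

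Between the groups, none of the 35 genes passed the test. By edgeR's quasi-likelihood test, two-sided, with p-values adjusted by Benjamini-Hochberg over all 19199 genes and a threshold of 0.05, 0 of 35 were called, where 145 of all genes (0.755%) were, 0.688% as higher in ATG7 and 0.0677% as lower. The smallest adjusted p among members was that of Mcm3, at 0.469. No member had an unadjusted p under 0.05, against 12% of all genes, and the DESeq2 Wald test and limma-voom also called 0 members, with 0 and 2 members at an unadjusted p under 0.05.

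The fitted log2 fold change of ATG7 over EYFP was above 0 in 34 of 35 members, against 49.2% of all genes, with Hmmr the exception at -0.01. Its median was 0.16 over S phase genes and 0.27 over mitotic genes, against -0.0037 over all genes. The members share libraries and are not independent of each other, and the mitotic direction rested on ATG7 2. Without that library 10 of 22 mitotic genes were above 0 and their median was -0.04, while 12 of 13 S phase genes were above 0 with a median of 0.09. Without EYFP 1 the mitotic median was 0.43, and the smallest adjusted p was 0.169 (Tpx2). Without EYFP 3 the mitotic median was 0.25, the S phase median was 0.16, and 0 members were called.

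The precision differed between the sets. The 95% intervals of all 35 genes included no change. Their upper bounds lay between 1.18-fold (Mcm6) and 1.82-fold (Rrm2) for S phase genes and between 1.37-fold (Aurka) and 3.27-fold (Mki67) for mitotic genes. A rise of 2-fold therefore lay outside the interval of every S phase gene, but inside those of Mki67, Top2a, Birc5, Aurkb, Ube2c, Cenpe and Tpx2.

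**Figure D2:**
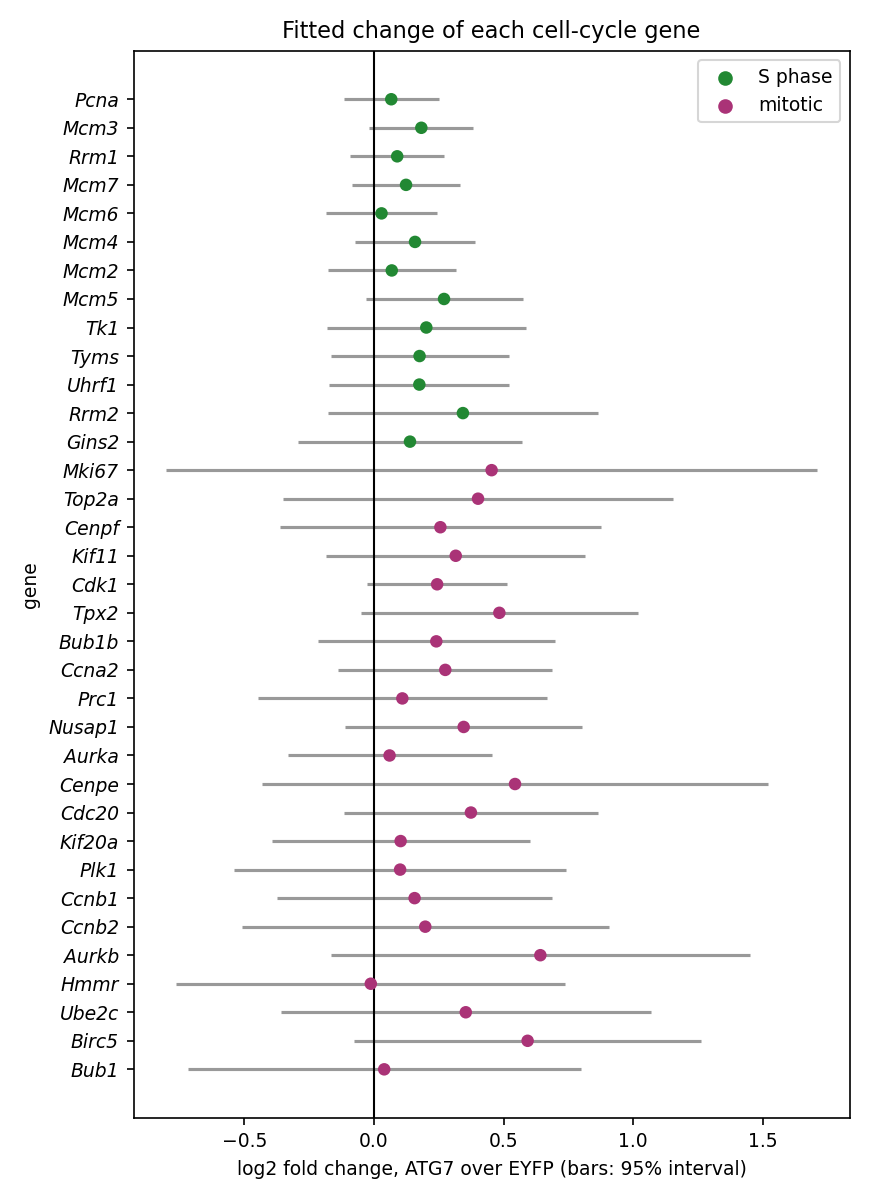
Fitted log2 fold change of ATG7 over EYFP (x axis, points) with its 95% interval (bars) for each of the 35 genes (y axis), S phase in green and mitotic in purple. Every bar crosses 0, and the bars of the mitotic genes are mostly wider, up to that of Mki67.

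The S phase genes varied little. Their mean log2 CPM was 3.64, 3.54, 3.57 and 3.41 across EYFP 1 to 4 and 3.56, 3.79 and 3.73 across ATG7 1 to 3. The group means were 3.54 ± 0.094 (SD, n = 4) and 3.70 ± 0.12 (SD, n = 3), and the groups overlapped, since ATG7 1 lay below EYFP 1 and EYFP 3. In bulk RNA, fewer cells of a kind and less RNA per cell cannot be told apart, and this holds for every level given here.

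The MCM proteins are the 6 subunits of the helicase that unwinds DNA at replication forks. All 6 subunit genes had a fitted log2 fold change above 0, between 0.03 (Mcm6) and 0.27 (Mcm5), and none passed. Mcm3 was at 40.6, 33.3, 38.8 and 35.4 CPM across EYFP 1 to 4 and at 37.7, 44.3 and 44.0 CPM across ATG7 1 to 3. Its log2 fold change was 0.18 with a standard error (SE) of 0.091, and EYFP 1 and EYFP 3 lay above ATG7 1. Mcm5 was at 9.42, 8.83, 8.03 and 7.49 CPM in EYFP and at 8.32, 10.97 and 11.2 CPM in ATG7 (log2 fold change 0.27, SE 0.138, edgeR adjusted p = 0.483). ATG7 2 and ATG7 3 were its highest libraries, and ATG7 1 lay inside the EYFP range.

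Mcm4 was at 18.0, 19.8, 18.0 and 14.8 CPM in EYFP and 18.5, 20.1 and 20.5 CPM in ATG7, with EYFP 4 the lowest (edgeR adjusted p = 0.619). Mcm7 was at 21.8, 17.4, 21.4 and 19.4 CPM in EYFP and 21.3, 22.8 and 21.3 CPM in ATG7 (edgeR adjusted p = 0.677). Its exons share 321 bases with Ap4m1 and 64 with Cops6 on the other strand. Mcm2, a marker of cells licensed to replicate, was at 11.2, 12.3, 11.6 and 11.3 CPM in EYFP and 10.4, 13.7 and 12.4 CPM in ATG7. Its lowest and highest libraries were both ATG7 (log2 fold change 0.07, SE 0.112). Mcm6 lay between 17.8 and 22.5 CPM, with overlapping groups.

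Pcna, the sliding clamp that holds DNA polymerase on its template, had the highest level per exon length of all 35 members, 27.8 CPM per kilobase on average. It was at 60.9, 74.5, 65.3 and 60.7 CPM in EYFP and at 66.7, 66.5 and 72.2 CPM in ATG7. EYFP 2 was its highest library, and the log2 fold change was 0.07 (SE 0.083, edgeR adjusted p = 0.820). Its pseudogene Pcna-ps2 took 57 counts in all, against 20743 for Pcna.

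In the supply of nucleotides, none of 4 genes passed. Rrm2, the regulated subunit of ribonucleotide reductase, was at 4.21, 2.81, 2.68 and 2.14 CPM in EYFP and 3.17, 4.50 and 3.55 CPM in ATG7. EYFP 1 and ATG7 2 were its 2 highest libraries, and its log2 fold change of 0.34 (SE 0.237) was the largest of the S phase genes. Tk1, thymidine kinase, was at 10.3, 6.19, 8.16 and 8.32 CPM in EYFP and 8.42, 11.4 and 8.58 CPM in ATG7, with the same 2 libraries highest. The partner subunit Rrm1 lay between 27.1 and 31.9 CPM and thymidylate synthase, Tyms, between 5.32 and 7.96 CPM, both with overlapping groups. Uhrf1, which keeps DNA methylation on new strands, lay between 4.32 and 6.21 CPM. Gins2, a subunit of the helicase's GINS partner, lay between 1.67 and 2.29 CPM, and 2758 of its 4097 exonic bases also belong to exons of Gse1 on the other strand, so its reads are uncertain.

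The mitotic genes varied between libraries of the same group. Their mean log2 CPM was 2.20, 1.54, 1.65 and 1.46 across EYFP 1 to 4 and 1.81, 2.47 and 1.62 across ATG7 1 to 3. ATG7 2 and EYFP 1 were highest, and the other 5 libraries lay between 1.46 and 1.81. The group means of 1.72 ± 0.33 (SD, n = 4) and 1.97 ± 0.44 (SD, n = 3) differed by 0.25, less than either SD. Summed over the 22 genes, EYFP 1 reached 124.4 CPM and the other EYFP libraries 71.8 to 83.8 CPM, while ATG7 2 reached 156.4 CPM and the other ATG7 libraries 94.6 and 80.2 CPM.

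**Figure D3:**
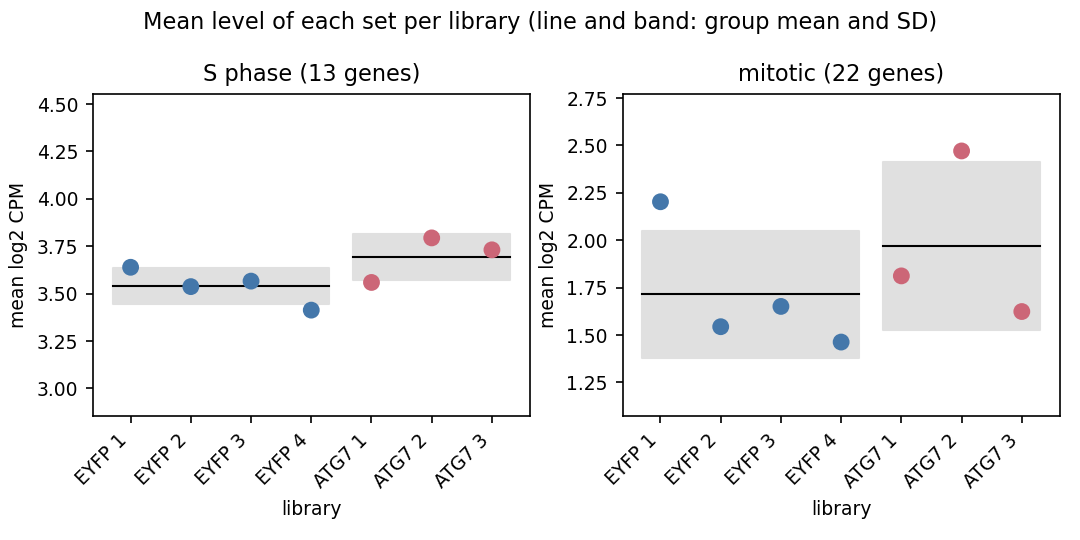
Mean log2 CPM (y axis) of the 13 S phase genes (left) and the 22 mitotic genes (right) in each library (x axis; EYFP blue, ATG7 red), with the group mean (line) and SD (band). Both panels span the same number of log2 units, and EYFP 1 (2.20) and ATG7 2 (2.47) stand above the other libraries in the mitotic panel.

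Gene by gene, EYFP 1 was the highest EYFP library in 21 of 22 mitotic genes and ATG7 2 the highest ATG7 library in 21 of 22. Both held in 20 of 22 (90.9%), against 5 of 13 S phase genes and 14.5% of all genes, and in those 20 genes these were also the 2 highest of the 7 libraries. The exceptions were Cdk1, in which EYFP 1 was the lowest EYFP library, and Aurkb, in which ATG7 1 was the highest ATG7 library. The median ratio of EYFP 1 to the mean of the other EYFP libraries was 1.60 over mitotic genes and 1.06 over S phase genes. For ATG7 2 against the other ATG7 libraries it was 1.61 and 1.08. The 2 libraries were singled out after their values were seen, and no test is given.

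**Figure D4:**
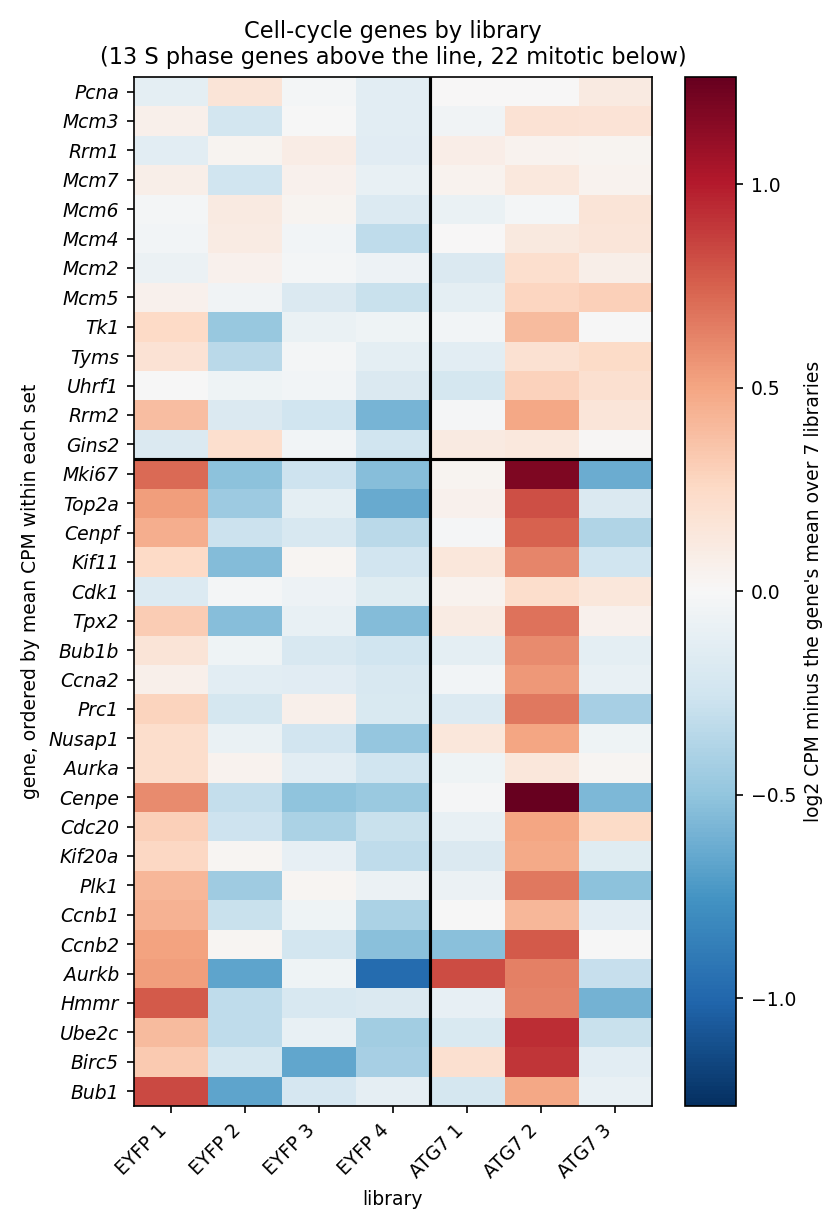
Log2 CPM of each gene (rows) in each library (columns) minus the gene's mean over the 7 libraries, red above and blue below that mean. S phase genes lie above the horizontal line and mitotic genes below it, and the vertical line parts EYFP from ATG7. The mitotic rows are red in EYFP 1 and ATG7 2, in 1 library of each group, except in the EYFP 1 column for Cdk1.

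Within groups the SD of log2 CPM had a median of 0.428 over mitotic genes, 0.146 over S phase genes and 0.184 over all genes. Counting error alone would give a median SD of 0.124 for mitotic and 0.063 for S phase genes, since mitotic genes had fewer counts. The observed SD exceeded counting error by a median of 3.36 times in mitotic and 2.55 times in S phase genes. For Mki67 it was 0.735 against 0.053 from counting, the largest ratio of the 35, and for Cdk1 it was 0.079 against 0.085, the smallest. EYFP 1 had the fewest total counts and ATG7 2 the most. The part of depth in the mitotic pattern was not tested.

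Mki67, whose protein Ki-67 coats mitotic chromosomes and is the usual stain for cycling cells, was at 23.8, 10.1, 12.1 and 10.01 CPM in EYFP and at 14.9, 32.9 and 9.42 CPM in ATG7. Its highest and its lowest library were both ATG7, and the groups overlapped. The log2 fold change was 0.45 (SE 0.517, edgeR adjusted p = 0.806), and without ATG7 2 it was -0.20. The gene (ENSMUSG00000031004) lies at chr7:135689784-135716361 in GRCm38 and had the highest level per exon length of the mitotic genes, 1.61 CPM per kilobase.

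Top2a, the topoisomerase that untangles sister chromatids (chr11:98992943-99024189), was at 16.0, 8.07, 10.2 and 7.12 CPM in EYFP and at 11.5, 19.5 and 9.76 CPM in ATG7. The same 2 libraries were highest, and the log2 fold change was 0.40 (SE 0.326, edgeR adjusted p = 0.706). Its promoter, shown above, held the most CHR matches of the 6 sequences.

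Cdk1, the kinase that drives entry into mitosis (chr10:69335146-69352938), differed in pattern from the other mitotic genes. It was at 5.68, 6.30, 6.10 and 5.74 CPM in EYFP and at 6.60, 7.48 and 7.08 CPM in ATG7. All 3 ATG7 libraries lay above all 4 EYFP libraries, which held for no other member, while 11.2% of all genes had groups that did not overlap (6.33% with ATG7 higher). The difference was small, a log2 fold change of 0.24 (SE 0.123), and did not pass (edgeR adjusted p = 0.475, with a range of 0.401 to 0.897 over the alternatives tried).

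**Figure D5:**
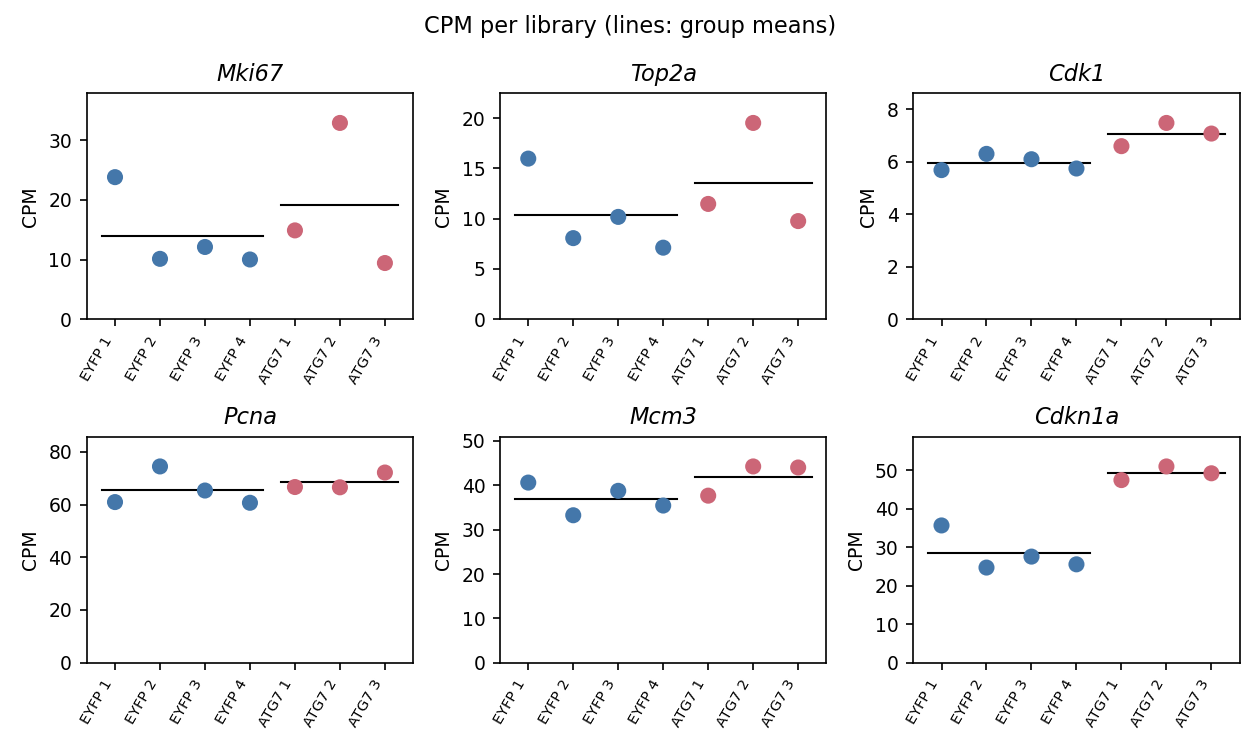
CPM (y axis, from 0) of 5 members and of the inhibitor Cdkn1a in each library (x axis; EYFP blue, ATG7 red), with group means as lines. In Mki67 and Top2a 1 library of each group stands high, in Cdk1 and Cdkn1a all ATG7 points lie above all EYFP points, and in Pcna and Mcm3 the groups overlap.

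The cyclins that activate Cdk1 followed the mitotic pattern. Ccnb1, cyclin B1, was at 3.47, 2.09, 2.46 and 1.94 CPM in EYFP and 2.55, 3.42 and 2.32 CPM in ATG7, with EYFP 1 and ATG7 2 highest (log2 fold change 0.16, SE 0.241, and -0.03 without ATG7 2). Ccna2, cyclin A2, was at 4.34, 3.77, 3.75 and 3.61 CPM in EYFP and 4.05, 6.06 and 3.89 CPM in ATG7 (log2 fold change 0.28, SE 0.187). In Ccna2 the rank was the same but EYFP 1 stood only 1.17 times above its group, and 510 exonic bases are shared with Exosc9 on the other strand. Ccnb2, cyclin B2, lay between 1.57 and 3.88 CPM. Its pseudogene Ccnb2-ps took 1724 counts against 756 for Ccnb2 and lay between 4.84 and 6.32 CPM, so the split of reads between them is uncertain.

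Regulators of anaphase had EYFP 1 and ATG7 2 as their 2 highest libraries. Cdc20, the activator that starts the destruction of securin and cyclin B, was at 3.52, 2.38, 2.17 and 2.36 CPM in EYFP and 2.67, 4.04 and 3.38 CPM in ATG7. ATG7 2 was highest and EYFP 1 second (log2 fold change 0.37, SE 0.223, edgeR adjusted p = 0.566). Ube2c, the ubiquitin-conjugating enzyme that works with it, lay between 1.35 and 3.48 CPM. The checkpoint kinases Bub1 and Bub1b, which delay anaphase until chromosomes are attached, lay between 0.938 and 2.65 CPM and between 3.66 and 6.57 CPM.

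The 2 largest fitted changes among the 35 genes were those of partners in mitotic signalling, Aurkb and Birc5. Aurkb, the catalytic part of the chromosomal passenger complex, was at 3.01, 1.31, 2.00 and 1.06 CPM in EYFP and 3.67, 3.22 and 1.70 CPM in ATG7. ATG7 1 and ATG7 2 were highest, EYFP 1 came next, and the log2 fold change was 0.64 (SE 0.365, edgeR adjusted p = 0.545). Birc5, survivin, a subunit of the same complex, was at 2.10, 1.44, 1.06 and 1.25 CPM in EYFP and 1.92, 3.13 and 1.53 CPM in ATG7. EYFP 1 lay above ATG7 1 and ATG7 3, and the log2 fold change was 0.59 (SE 0.304, edgeR adjusted p = 0.487). Aurka, the spindle pole kinase, moved little, between 2.53 and 3.52 CPM, and Plk1, the polo kinase, lay between 1.76 and 4.004 CPM with EYFP 1 and ATG7 2 highest.

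The smallest p of the mitotic set was that of a spindle gene. Tpx2, which activates Aurora A and nucleates microtubules, was at 5.38, 2.97, 4.04 and 2.95 CPM in EYFP and 4.62, 6.93 and 4.45 CPM in ATG7. EYFP 1 lay above 2 of the 3 ATG7 libraries, and the log2 fold change was 0.48 (SE 0.243, edgeR adjusted p = 0.474, with a range of 0.169 to 0.916 over the alternatives tried). Kif11, the kinesin that pushes spindle poles apart, was at 7.73, 4.43, 6.59 and 5.47 CPM in EYFP and 7.17, 9.94 and 5.42 CPM in ATG7. Nusap1, which bundles spindle microtubules, was at 4.04, 3.27, 2.95 and 2.48 CPM in EYFP and 3.85, 4.91 and 3.36 CPM in ATG7. In both, ATG7 2 was highest and EYFP 1 second, and adjusted p was 0.653 and 0.571 (edgeR).

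The remaining members had the same 2 libraries highest. Cenpe, a kinetochore kinesin, had the largest ratio of ATG7 2 to the other ATG7 libraries, 2.89, with 6.37 CPM against 2.62 and 1.79 CPM, and EYFP 1 was at 4.02 CPM. Cenpf, another kinetochore protein, lay between 5.46 and 11.9 CPM. Hmmr, a spindle and hyaluronan-binding protein, was highest in EYFP 1 at 3.44 CPM, then in ATG7 2 at 3.11 CPM. Kif20a and Prc1, which build the midzone for cytokinesis, lay between 2.09 and 3.64 CPM and between 3.01 and 6.41 CPM, and they share 1271 exonic bases with Cdc23 and 911 with Rccd1 on the other strand.

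Further cell-cycle genes outside the 35 were read from lists of the same pathway. Of 42 other mitotic genes 0 passed, 35 had a fitted log2 fold change above 0 and the median was 0.21. EYFP 1 was the highest EYFP library in 34 of them, ATG7 2 the highest ATG7 library in 40, and both held in 33. Incenp, the scaffold of the passenger complex, had the smallest p among them, at 18.8, 18.6, 19.1 and 18.7 CPM in EYFP and 21.1, 25.04 and 22.2 CPM in ATG7. Its groups did not overlap, and it did not pass (log2 fold change 0.28, SE 0.085, edgeR adjusted p = 0.204). Kif15, a spindle kinesin, followed with a log2 fold change of 0.66 (SE 0.253, edgeR adjusted p = 0.325).

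Of 24 other replication genes 0 passed and 17 were above 0, with a median of 0.15. Both libraries were the highest of their groups in 6 of these. Gmnn, geminin, the inhibitor of relicensing, was at 3.06, 2.70, 2.22 and 2.70 CPM in EYFP and 3.30, 3.62 and 4.15 CPM in ATG7. Its groups did not overlap (log2 fold change 0.47, SE 0.179, edgeR adjusted p = 0.323). Chaf1b, a chromatin assembly factor, had a log2 fold change of 0.53 (SE 0.270, edgeR adjusted p = 0.482).

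None of the upstream regulators passed. Of 9 cyclins and kinases of G1 0 passed and 5 were above 0, with a median of 0.02. Cyclin D1, Ccnd1, had a log2 fold change of 0.22 (SE 0.090, edgeR adjusted p = 0.351) and cyclin D3, Ccnd3, of -0.14 (SE 0.090, edgeR adjusted p = 0.6004). Of 19 E2F, RB and MuvB regulators 0 passed and 15 were above 0, with a median of 0.09. Rbl1, the RB relative p107, was at 29.3, 25.4, 25.9 and 27.2 CPM in EYFP and 29.8, 34.3 and 34.8 CPM in ATG7 (edgeR adjusted p = 0.181), without overlap, and Tfdp2, a partner of E2F, had a log2 fold change of -0.27 (SE 0.107, edgeR adjusted p = 0.346). Foxm1, the activator of mitotic genes, was picked out after its values were seen, and it had the mitotic pattern, with 7.27, 3.79, 4.30 and 4.03 CPM in EYFP and 5.30, 8.57 and 4.67 CPM in ATG7.

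Of the cell-cycle genes listed here, the 1 that passed was an inhibitor. Among 17 CDK inhibitors and arrest genes, 12 were above 0, the median was 0.07, and only Cdkn1a passed, where 0.688% of all genes were called as higher. The lists of 35, 24, 42, 9 and 19 genes had 0 calls, so 1 call over all the lists together is near that share. Cdkn1a encodes p21, which binds and blocks cyclin-dependent kinases (ENSMUSG00000023067, chr17:29090976-29100727). It was at 35.7, 24.7, 27.6 and 25.6 CPM in EYFP and at 47.5, 51.0 and 49.2 CPM in ATG7. Every ATG7 library lay above every EYFP library, and EYFP 1 was the nearest EYFP library. The mean of Cdkn1a rose from 28.4 ± 5.003 CPM (SD, n = 4) in EYFP to 49.2 ± 1.77 CPM (SD, n = 3), or by 0.80 on the log2 scale (SE 0.116, edgeR adjusted p = 0.0133). The call was lost without EYFP 4 (0.75, adjusted p = 0.0583), without ATG7 2 (0.77, 0.0714) and without ATG7 3 (0.79, 0.0832), and the adjusted p ranged from 3.09e-07 to 0.223 over the alternatives tried.

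Markers of other cells were summed per library. None of the 12 marker lists held a gene that passed. Relative to the microglial markers, the summed mitotic genes were at 50.2, 34.3, 31.2 and 31.1 CPM in EYFP and 43.4, 59.8 and 30.0 CPM in ATG7 per 10000 CPM of markers, so EYFP 1 and ATG7 2 were highest on this scale too. Neural precursor and newborn neuron markers (10 genes) summed to 88.8 to 106.9 CPM in EYFP and 81.9 to 100.9 CPM in ATG7, and were lowest in ATG7 2 among the ATG7 libraries. Eomes, Neurog2, Dcx and Neurod4 of that list were under 1 CPM in every library, while Nes (28.4 to 42.6 CPM), Hopx (20.99 to 41.9 CPM) and Sox2 (22.02 to 30.1 CPM) made up most of the sum. Oligodendrocyte precursor markers (8 genes) summed to 41.5 to 59.8 CPM in EYFP and 37.1 to 51.3 CPM in ATG7, with EYFP 1 at 46.9 and ATG7 2 at 37.8 CPM. Pdgfra (16.3 to 32.1 CPM) and Cspg4 (11.2 to 17.6 CPM) made up most of this sum. ATG7 2 was the highest ATG7 library in 2 of the 8 genes, Olig1 (4.48 CPM) and Sox10 (1.80 CPM). EYFP 1 was the highest EYFP library in 1 gene, and both held in 0. The part of precursors in the mitotic pattern was not tested.

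Some other marker sums were the highest or the lowest of their group in the 2 libraries. The 6 astrocyte markers summed to 642.3 CPM in EYFP 1, the highest of the EYFP range from 295.0 CPM, and to 467.9 CPM in ATG7 2, the highest of the ATG7 range from 376.3 CPM. None was at 0. Slc1a2 and Slc1a3 made up most of the sum. Of the 6 genes, EYFP 1 was the highest EYFP library in 5 and ATG7 2 the highest ATG7 library in 5. Both held in 4 of them. The exceptions were Aldh1l1, lowest among EYFP libraries in EYFP 1 (32.1 CPM), and Slc1a3, highest among ATG7 libraries in ATG7 1 (172.9 CPM). The 6 choroid plexus markers summed lowest in the same libraries. In EYFP 1 they were at 54449 CPM, near EYFP 3 at 56054 CPM, of an EYFP range up to 71787 CPM. In ATG7 2 they were at 46099 CPM of an ATG7 range up to 60783 CPM. Ttr and Enpp2 made up most of this sum. Kl was lowest among EYFP libraries in EYFP 3, and Kcnj13 was lowest in EYFP 3 and in ATG7 3. The part of these cells in the mitotic pattern was not tested. The 9 neuronal markers summed highest in EYFP 1 (68.9 CPM) and to 52.9, 49.9 and 50.1 CPM across ATG7 1 to 3. Eno2 and Prox1 made up most of this sum. EYFP 1 was the highest EYFP library in 7 of the 9 genes and ATG7 2 the highest ATG7 library in 4. Both held in these 4, Slc17a7, Rbfox3, Gad1 and Prox1, of which Rbfox3 and Gad1 were under 1 CPM in every library. Slc17a7 was at 7.16 CPM in EYFP 1 and at 1.69 CPM in ATG7 2. The part of neurons in the mitotic pattern was not tested.

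Blood cells could also bring dividing cells. The 7 lymphocyte markers summed to 1.35 to 3.34 CPM in EYFP and 4.02 to 10.5 CPM in ATG7, without overlap (p = 0.0286 by an exact two-sided permutation test, which can give none smaller here, and 0.343 when adjusted over the 12 lists). The T cell and cytotoxic cell markers Cd3d, Cd3e, Trac and Nkg7 were each higher in every ATG7 library than in every EYFP library. This held for 6.33% of all genes. None of these markers passed (edgeR adjusted p of 0.106, 0.276, 0.0961 and 0.2002). Their levels were low, with EYFP means of 0.19, 0.38, 0.49 and 0.75 CPM in the same order. The B cell markers Cd79a and Ms4a1 were under 1 CPM in every library, with overlapping groups. The lymphocyte sum was 4.15, 4.02 and 10.5 CPM across ATG7 1 to 3. Monocyte and neutrophil markers summed highest in ATG7 3, at 146.1 CPM. In 1 of these 7 genes, Plac8, ATG7 2 was the highest ATG7 library. Plac8 was at 4.15, 4.25, 1.80 and 2.70 CPM in EYFP and 4.70, 11.4 and 10.3 CPM in ATG7. Its groups did not overlap, and it did not pass (edgeR adjusted p = 0.128). The 7 granulocyte precursor markers summed to 21.8 to 48.7 CPM in EYFP and 10.6 to 59.98 CPM in ATG7, again highest in ATG7 3. Ngp (4.27 to 27.9 CPM), Ltf (4.82 to 24.4 CPM) and Camp (1.30 to 6.80 CPM) made up this sum, and Mpo, Elane, Ctsg and Prtn3 were under 1 CPM in every library. The part of lymphocytes in the difference of Cdkn1a and the part of blood cells in the mitotic pattern were not tested.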

How the data were processed

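The authors deposited raw read counts per Ensembl gene, 1 column per library. Per the submitters' processing notes, fastp 0.20.1, HISAT2 2.0.5 and featureCounts were used with mm10 and GRCm38. The annotation release, strand setting and handling of shared reads are not given in the sources used here, so reads of overlapping genes on opposite strands cannot be told apart. The table lists 37 mitochondrial genes at 0 in every library. Symbols and positions came from GENCODE M21, which matched 55141 of 55401 rows.

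The counts as deposited entered edgeR 4.0.16 and its quasi-likelihood test (R 4.3.3; TMM scaling, filterByExpr, robust dispersion), ATG7 against EYFP, over all 7 libraries with no covariate, and p-values were adjusted over all 19199 genes by Benjamini-Hochberg. CPM are TMM-scaled, and the prior count of log2 CPM was 2. The SE is the absolute log2 fold change over the square root of F. Levels per kilobase used merged exons. A floor of 3 counts equals 0.0543 to 0.0835 CPM and covers counting error only. Library pairs within groups differed by more than sampling noise. Marker sums and totals were compared by exact permutation over 35 splits. The code was checked on simulated data with 200 changed genes in each run. At changes of 1.5-, 2- and 3-fold it recovered 49.5%, 86% and 97% of these genes. False calls made up 12.4%, 8.51% and 5.83% of calls, each more than the adjusted p threshold of 0.05 aims at.

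The members and the lists were chosen with earlier results of these data known. Values per library are given for the 6 S phase and 8 mitotic members with the smallest p, for Mki67, Top2a, Cdk1, Ccnb1, Pcna, Mcm2 and Birc5, for the highest member per kilobase of each set, and for Foxm1, chosen afterwards. In each further list the genes that passed, or the 2 with the smallest p, are named. Alternatives were 3 other scalings, 2 other filters, DESeq2 1.42.0, limma-voom (limma 3.58.1), a replicate block, leaving out each library, and prior counts of 0.5 and 5. The single values of some marker genes are not reported here.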

Additional observations from a re-analysis of the deposited data

Results flagged for a closer look

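In 5 mitotic genes EYFP 1 lay so far above the other 3 EYFP libraries that the gap passed Dixon's 95% limit for 4 values. EYFP 1 was at 23.8 CPM in Mki67 (the others up to 12.1 CPM), at 9.78 CPM in Cenpf (up to 6.16 CPM) and at 4.02 CPM in Cenpe (up to 2.16 CPM). It was at 3.52 CPM in Cdc20 (up to 2.38 CPM) and at 3.44 CPM in Hmmr (up to 1.77 CPM). Of 46 values compared in this way 5 were set apart, where chance gives about 1 in 20, or 2.3. All 5 were mitotic genes with EYFP 1 high, and as they come from 1 library they are not independent of each other. With 3 libraries the ATG7 group could not be examined in this way.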

How the results depend on the processing

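No member was called under any of the alternatives, and at most 9 had an unadjusted p under 0.05 (without EYFP 1). The number of all genes called, 145 in the reported fit, was 297 with no filter, 585 with DESeq2 and between 28 and 277 when 1 library was left out (28 without ATG7 2, 30 without EYFP 4 or ATG7 3, 94 without EYFP 2, 277 without EYFP 1). With 1 library left out the log2 fold change ran from -0.20 to 0.83 in Mki67, from -0.029 to 0.36 in Ccnb1 and from -0.025 to 0.17 in Mcm2. The lowest value of each, below 0, was that without ATG7 2, and the cause was not tested. With the replicate number as a block 0 of all genes were called, the medians were 0.12 for S phase and 0.19 for mitotic members, and Cdkn1a lost its call (0.76, edgeR adjusted p = 0.223). Same-numbered libraries did not deviate together (correlations over genes of -0.061, -0.182 and 0.066), so the numbers were not taken as pairs. The largest correlation of any EYFP with any ATG7 library was that of EYFP 1 with ATG7 2, at 0.215 over all genes tested. The other pairs of unlike number lay between -0.145 and 0.156. Among the named genes 413 results kept direction and call, 4 lost the call (all of Cdkn1a) and 3 reversed. The median of all genes lay between -0.0243 and 0.0031 over the settings. Mitotic members had a median of 134.8 reads per library, and their spread within groups was above counting error (0.428 against 0.124 on the log2 scale, medians).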
